A study of Mus musculus with 14 samples.

Results

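Foxp3 and 5 further genes known from regulatory T cells (Ikzf2, Ikzf4, Lrrc32, Nrp1 and Izumo1r) were followed through 7 culture media of mouse CD4+ T cells. The 6 genes were chosen by name. Every row of both deposited expression tables whose symbol or RefSeq entry belonged to 1 of them was taken, which gave 9 transcripts, and the values of a gene's transcripts were summed. They are 6 of 23769 genes in the tables. RNA sequencing was done on naive cells of C57BL/6 mice, sorted as CD4+, CD62L high, CD44 low and CD25 negative, which removes most regulatory T cells already made in the animal. All cells were activated on plates coated with antibodies to CD3 and CD28 at 10 μg/ml each and collected after 3 days. There are 14 libraries, 2 for each medium.

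In the Th0 medium no cytokine was added, and IL-2, IL-4 and IFN-γ were blocked by antibodies. iTreg cells (iTreg is the usual name of induced regulatory T cells) received TGF-β at 20 ng/ml, IL-2 at 50 U/ml and an antibody against IFN-γ. The Th17_b medium held IL-6 at 20 ng/ml together with 2 ng/ml of TGF-β and antibodies against IFN-γ and IL-2. IL27_plus_TGF_beta cells received TGF-β at the same 2 ng/ml and IL-27 at 20 ng/ml, with antibodies against IFN-γ, IL-2 and IL-4. Th17_23 cells received IL-1β and IL-6 at 20 ng/ml each and IL-23 at 50 ng/ml, while IFN-γ, IL-2 and TGF-β were blocked by antibodies. Th1 cells received IL-12 at 20 ng/ml and an antibody against IL-4, and Th2 cells IL-4 at 20 ng/ml and an antibody against IFN-γ. The iTreg and Th0 media thus differ in TGF-β, in IL-2 or its blockade and in the antibody against IL-4, and the parts of these cannot be told apart. TGF-β was also at a higher dose in iTreg than in the other media that contain it.

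Regulatory T cells restrain other immune cells, and Foxp3 is the transcription factor that defines them. In culture, TGF-β together with IL-2 and T cell receptor stimulation is known to switch on Foxp3 in naive cells, while IL-6 and IL-27 are known to oppose it. Ikzf4 and Ikzf2 encode Eos and Helios, zinc finger proteins of the Ikaros family that work with Foxp3. Nrp1 encodes neuropilin-1, a co-receptor for semaphorins and VEGF that is used in mice as a surface marker of thymus-derived regulatory T cells. Lrrc32 encodes GARP, which holds latent TGF-β on the cell surface. Izumo1r encodes a folate receptor-like surface protein, also called folate receptor 4 or Juno, that is high on mouse regulatory T cells and serves as the sperm receptor of the egg.

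Levels are given as deposited, in FPKM, fragment counts scaled to transcript length and library size. A change is a difference of log2(FPKM + 1) with its SE, a scale on which changes of scarce genes come out too small. Calls of higher or lower were made at an adjusted p under 0.05 in limma, with Benjamini-Hochberg adjustment over 11557 genes whose mean reached 1 FPKM in some medium. All 6 genes passed this filter, Foxp3 through iTreg and Th0 and Ikzf2 through 3 media. By the steps between the lowest values, replicate 2 libraries held 0.748 to 0.832 of the depth of the first Th0 library and replicate 1 libraries 0.935 to 1.06, and 10336 to 10697 genes reached 1 FPKM in a library. Markers of T cells summed to 1210 to 2110 FPKM, those of B cells to at most 1.93, myeloid cells 2.65, natural killer cells 1 and dendritic cells 0.576, and those of CD8 T cells to 2.71 to 7.78. Endothelial markers summed to 1.44 to 7.67, platelet and megakaryocyte markers to at most 1.51 and erythroid markers to at most 0.192. The erythroid sum holds 2 of 3 listed genes, because the haemoglobin gene Hbb-b1 was not found by name. Single genes made up most of some sums. Cd8b1 (means of 2.39 to 7.19) did so for CD8 T cells, with Cd8a at most 0.325 on average, and Egfl7 (1.95 to 7.23) for endothelial cells. Eomes made up nearly all of the highest natural killer sum (1.00 FPKM in the first Th1 library). Itgam made up most of the highest myeloid sum (2.55 in the first iTreg library). The median of all tested genes lay at -0.127 in iTreg against Th0 and at -0.111 in iTreg against Th17_b, and changes in these comparisons are to be read relative to it. Rescaling moved the share of higher calls from 35.8% to 46.7% (quantile normalization) or 46.6% (median scaling) in iTreg against Th0, from 31.5% to 49.0% or 47.6% in Th2 against Th0, and from 36.6% to 48.7% or 51.1% in iTreg against Th17_b. Median scaling moved it from 43.2% to 55.9% in IL27_plus_TGF_beta against Th17_b. No called change of the 6 genes changed direction under any alternative.

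The RefSeq promoter windows (GRCm38.p6, each of 300 bases, 250 before and 50 after a transcript's start) are shown for the 3 genes that the table holds, because Foxp3 and Nrp1 were both highest in iTreg while Izumo1r fell there. The tables of values used another build (mm9), so the windows were matched by symbol. Capitals mark letters searched on both strands: CAGAC, part of sites bound by SMAD proteins downstream of TGF-β, TTCNNNGAA, the spacing bound by STAT proteins downstream of IL-2, IL-6 and IL-27, TGTGGT, a RUNX motif, and GTAAACA, a forkhead motif. The motifs do not overlap each other in these windows. Ikzf2, Ikzf4 and Lrrc32 are named only.
Foxp3, first start: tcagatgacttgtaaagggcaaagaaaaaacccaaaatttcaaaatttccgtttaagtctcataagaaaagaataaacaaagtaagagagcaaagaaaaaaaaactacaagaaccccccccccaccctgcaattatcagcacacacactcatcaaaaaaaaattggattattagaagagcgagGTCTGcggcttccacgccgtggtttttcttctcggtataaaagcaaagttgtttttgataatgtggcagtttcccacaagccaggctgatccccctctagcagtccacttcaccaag
Foxp3, second start: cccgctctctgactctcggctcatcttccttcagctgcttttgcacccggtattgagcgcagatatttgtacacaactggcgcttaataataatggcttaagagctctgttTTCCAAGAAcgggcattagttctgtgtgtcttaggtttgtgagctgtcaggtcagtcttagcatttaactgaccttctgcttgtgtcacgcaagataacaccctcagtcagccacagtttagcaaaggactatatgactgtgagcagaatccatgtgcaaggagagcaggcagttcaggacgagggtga
Nrp1: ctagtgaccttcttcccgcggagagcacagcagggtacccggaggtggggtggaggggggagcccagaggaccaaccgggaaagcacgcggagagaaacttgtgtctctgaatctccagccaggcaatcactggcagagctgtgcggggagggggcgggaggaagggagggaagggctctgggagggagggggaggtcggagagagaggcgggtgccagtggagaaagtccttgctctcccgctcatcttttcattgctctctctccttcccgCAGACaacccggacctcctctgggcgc
Izumo1r: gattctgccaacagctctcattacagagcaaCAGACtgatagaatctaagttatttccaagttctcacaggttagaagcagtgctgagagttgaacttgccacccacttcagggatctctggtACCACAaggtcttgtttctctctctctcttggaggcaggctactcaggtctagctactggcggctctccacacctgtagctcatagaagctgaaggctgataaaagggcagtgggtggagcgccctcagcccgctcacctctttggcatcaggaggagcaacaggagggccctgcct
The first Foxp3 window (chrX:7579426-7579725, plus strand) holds CAGAC on the reverse strand, and the second (chrX:7580233-7580532, plus strand) holds TTCNNNGAA. The Nrp1 window (chr8:128358823-128359122, plus strand) holds CAGAC after the start, and the Izumo1r window (chr9:14903718-14904017, minus strand) holds CAGAC and, on the reverse strand, TGTGGT. Over all 32851 windows of the table, 49.6% hold CAGAC, 8.3% TTCNNNGAA, 16.8% TGTGGT and 3.6% GTAAACA. A match is a description of letters, not a bound site.

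Foxp3 stood apart in iTreg. It was at 96.5 and 104 FPKM in the iTreg libraries (replicate 1, then replicate 2, as throughout), 0.742 and 1.83 in Th0, 0.752 and 0.660 in Th17_b, 0.556 and 0.652 in Th1, 0.612 and 0.478 in Th2, 0.456 and 0.387 in IL27_plus_TGF_beta and 0.442 and 0.294 in Th17_23. No library outside iTreg reached 2 FPKM. iTreg exceeded Th0 by 5.51 ± 0.18 (adjusted p = 7.1e-08), Th17_b by 5.89 ± 0.18 (adjusted p = 4.7e-08) and IL27_plus_TGF_beta by 6.16 ± 0.18 (adjusted p = 1.3e-08). In the 2 other media with TGF-β Foxp3 lay at 0.387 to 0.752 FPKM, inside the range of the media without it, 0.294 to 1.83. In bulk RNA, fewer cells with a gene and less RNA in each cell cannot be told apart.

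Among the 2092 tested genes highest in iTreg, Foxp3 had the widest margin over its next medium, 5.51 on the log2 scale. Its range over media was wider than that of 99.8% of the tested genes. Most of the iTreg signal came from 1 of 3 annotated transcripts, at 92.7 and 96.3 FPKM, with 3.71 and 7.85 for the second and values at or near 0 for the third. In the low libraries the split between the first and second moved from library to library, so transcripts were not compared there. Exons of Foxp3 overlap those of Ccdc22 and Ppp1r3f, which lie on the opposite strand in GRCm38, and the sources used here do not say whether strand was used in counting. Ccdc22 stood at 8.84 to 15.2 FPKM and Ppp1r3f at 0.827 to 3.13 over the media means. The part of the overlapping genes in the low Foxp3 values was not tested.

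Below iTreg, the Foxp3 order was Th0, Th17_b, Th1, Th2, IL27_plus_TGF_beta and Th17_23. The libraries of Th0 and Th17_b, of Th1 and Th2, and of IL27_plus_TGF_beta and Th17_23 overlapped, so these neighbours did not differ beyond their spread. Foxp3 was called lower than Th0 in IL27_plus_TGF_beta (-0.64 ± 0.18, adjusted p = 0.014) and in Th17_23 (-0.70 ± 0.18, adjusted p = 0.010). The size of both changes depended on the Th0 libraries: without the second they were -0.27, no longer called (adjusted p = 0.0851), and -0.33, still called at the threshold (adjusted p = 0.0498), and without the first they were -1.01 and -1.07. Both calls were lost when the transcript with the highest mean replaced the sum (adjusted p = 0.227 and 0.0898), the first in a fit of its 2 media alone (0.0572), and each without the second library of its own medium (0.0975 and 0.0855). A pseudocount of 0.1 widened them to -1.29 and -1.46.

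**Figure D1:**
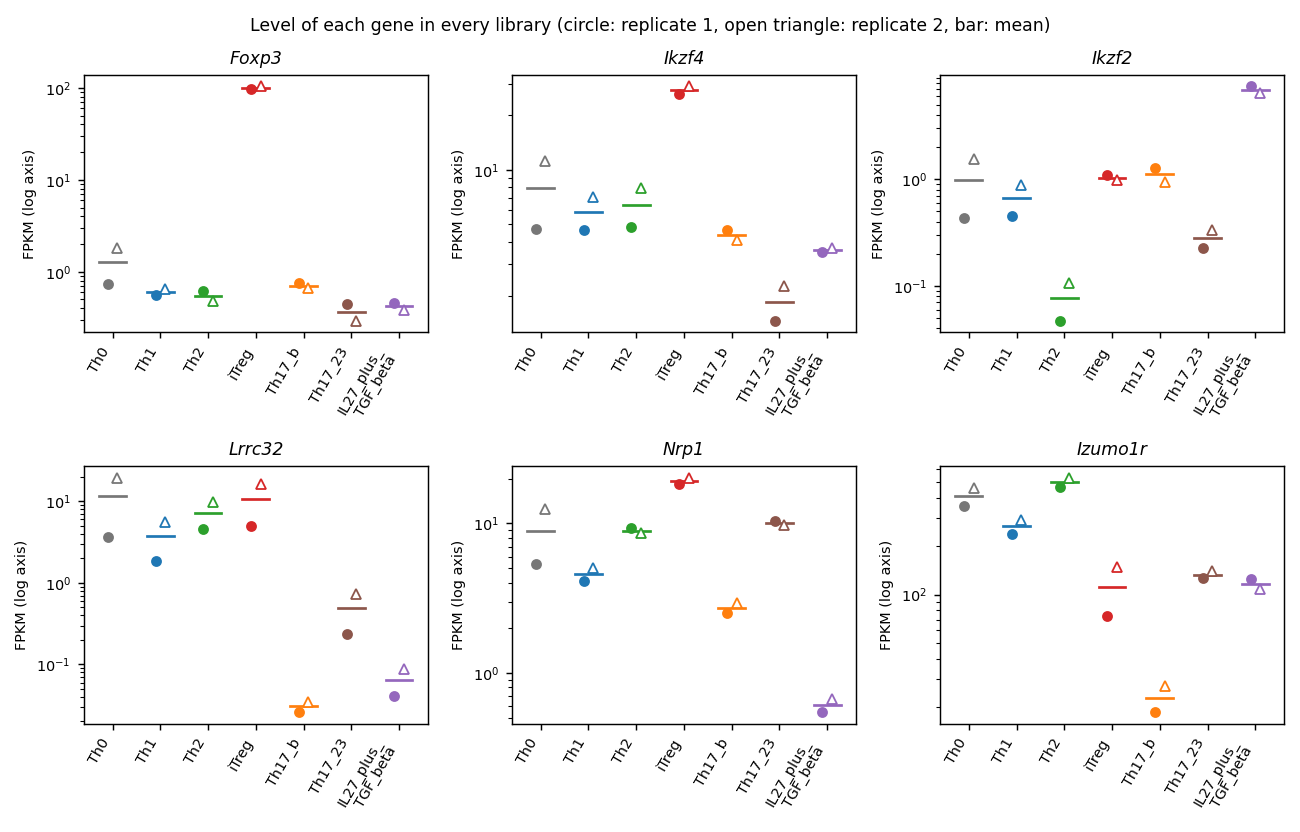
FPKM of each gene (log axis) in the 14 libraries by medium; circles are replicate 1, open triangles replicate 2 and bars the mean of both. Foxp3 stood at 96.5 and 104 FPKM in iTreg and below 2 elsewhere, and Ikzf2 was highest in IL27_plus_TGF_beta at 7.45 and 6.43.

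Ikzf4, encoding Eos, also peaked in iTreg but was present in every medium. Its level was 26.2 and 29.0 FPKM in iTreg, 4.68 and 11.2 in Th0, 4.82 and 7.91 in Th2, 4.62 and 7.07 in Th1, 4.63 and 4.11 in Th17_b, 3.52 and 3.68 in IL27_plus_TGF_beta and 1.46 and 2.27 in Th17_23. Both iTreg libraries lay above all others and both Th17_23 libraries below all others, while Th0, Th2, Th1 and Th17_b each overlapped with their neighbour in the order of means. The gene rose from Th0 to iTreg by 1.78 ± 0.24 (adjusted p = 0.00019) and was higher in iTreg than in Th17_b by 2.41 ± 0.24 (adjusted p = 3.6e-05) and than in IL27_plus_TGF_beta by 2.64 ± 0.24 (adjusted p = 1.2e-05). Its fall from Th0 to Th17_23 was -1.55 ± 0.24 (adjusted p = 0.00072).

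Smaller Ikzf4 differences depended on single libraries. The call against Th0 in Th17_b (-0.63 ± 0.24, adjusted p = 0.049) lay at the threshold and had an adjusted p of 0.0511 or more under 8 alternatives, 0.13 without the replicate block, 0.365 without the second Th17_b library and 0.457 without the second Th0 library. Without the first Th0 library it was -1.05. The call in IL27_plus_TGF_beta (-0.85 ± 0.24, adjusted p = 0.015) was lost without the replicate block (0.0525), without the second IL27_plus_TGF_beta library (0.127) and without the second Th0 library (-0.44, 0.146). Ikzf4 was higher in Th17_b than in Th17_23 by 0.92 ± 0.24 (adjusted p = 0.0097), but not without the first Th17_b library (0.61, adjusted p = 0.106) or the first Th17_23 library (0.0522).

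Ikzf2, encoding Helios, had its highest level outside iTreg. It stood at 7.45 and 6.43 FPKM in IL27_plus_TGF_beta, 1.27 and 0.950 in Th17_b, 1.09 and 0.983 in iTreg, 0.429 and 1.55 in Th0, 0.452 and 0.887 in Th1, 0.225 and 0.334 in Th17_23 and 0.0472 and 0.107 in Th2. The IL27_plus_TGF_beta libraries lay above all others, the Th2 libraries below all others, and the media Th17_b, iTreg, Th0 and Th1 overlapped with their neighbours in this order. The rise from Th0 to IL27_plus_TGF_beta was 2.05 ± 0.22 (adjusted p = 5.5e-05), and this medium exceeded Th17_b, which has the same TGF-β dose, by 1.91 ± 0.22 (adjusted p = 0.00012). iTreg was lower than IL27_plus_TGF_beta by -1.96 ± 0.22 (adjusted p = 4.5e-05), the reverse order of Foxp3 in the same libraries. The change from Th0 to iTreg was 0.09 ± 0.22 (adjusted p = 0.74); it was 0.55 within replicate 1 and -0.36 within replicate 2, and without the second Th0 library it was called (0.50, adjusted p = 0.0439).

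In Th2, Ikzf2 was called lower than in Th0 (-0.83 ± 0.22, adjusted p = 0.030), with both Th2 libraries near the lowest values. That call was lost with no filter (0.0751), with quantile normalization (0.0504), without either Th2 library (0.0873 and 0.158) and without the second Th0 library (-0.42, 0.214), and a pseudocount of 0.1 gave -2.42. Th17_b exceeded Th17_23 by 0.72 ± 0.22 (adjusted p = 0.020; 1.67 with a pseudocount of 0.1). The latter call was lost without the first Th17_b library (0.163) and without either Th17_23 library (0.0789 and 0.0859). In Th17_b against Th0 the change was 0.14 ± 0.22 (adjusted p = 0.62), and without the second Th0 library 0.55 (adjusted p = 0.0374). In Th17_23 it was -0.58 ± 0.22 (adjusted p = 0.054), which passed with a pseudocount of 0.1, with quantile normalization and without the first Th0 library (-0.99, adjusted p = 0.00389).

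Nrp1, the neuropilin co-receptor, was highest in iTreg and lowest in IL27_plus_TGF_beta. Its level was 18.4 and 20.3 FPKM in iTreg, 10.4 and 9.69 in Th17_23, 9.29 and 8.61 in Th2, 5.34 and 12.5 in Th0, 4.09 and 5.05 in Th1, 2.51 and 2.95 in Th17_b and 0.546 and 0.662 in IL27_plus_TGF_beta. Only Th2 and Th0 overlapped among neighbours of this order. The rise from Th0 to iTreg was 1.13 ± 0.24 (adjusted p = 0.0023), or 0.63 (adjusted p = 0.00349) without the first Th0 library. Falls from Th0 were -1.31 ± 0.24 in Th17_b (adjusted p = 0.0012; -0.81 without the second Th0 library) and -2.53 ± 0.24 in IL27_plus_TGF_beta (adjusted p = 2.2e-05). iTreg exceeded IL27_plus_TGF_beta by 3.66 ± 0.24 (adjusted p = 1.3e-06) and Th17_b by 2.45 ± 0.24 (adjusted p = 3.0e-05).

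Nrp1 also separated the 2 media with IL-6. Th17_b, with TGF-β, was lower than Th17_23, in which TGF-β was blocked, by -1.57 ± 0.24 (adjusted p = 0.00050); these media differ in IL-1β and IL-23 as well, and the parts cannot be told apart. Between the 2 media with TGF-β at 2 ng/ml, IL27_plus_TGF_beta was lower than Th17_b by -1.22 ± 0.24 (adjusted p = 0.0029; -2.01 with a pseudocount of 0.1). The changes against Th0 in Th17_23 (0.26 ± 0.24, adjusted p = 0.39), Th2 (0.10 ± 0.24, adjusted p = 0.81) and Th1 (-0.74 ± 0.24, adjusted p = 0.068) were not called. They turned on the Th0 libraries: without the second, Th17_23 gave 0.76 (adjusted p = 0.0026) and Th2 0.61 (0.0189), and without the first, Th1 gave -1.25 (0.00138).

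Lrrc32, encoding GARP, was below 1 FPKM in the 3 media that contained IL-6 or IL-27. It stood at 0.0262 and 0.0349 FPKM in Th17_b, 0.0408 and 0.0874 in IL27_plus_TGF_beta and 0.237 and 0.734 in Th17_23, against 3.64 and 19.6 in Th0, 5.00 and 16.4 in iTreg, 4.57 and 9.75 in Th2 and 1.84 and 5.58 in Th1. The 6 libraries of the first 3 media lay below the 8 others, and Th0, iTreg, Th2 and Th1 overlapped. It fell from Th0 in Th17_b (-3.25 ± 0.45, adjusted p = 0.00025), IL27_plus_TGF_beta (-3.20 ± 0.45, adjusted p = 0.00030) and Th17_23 (-2.74 ± 0.45, adjusted p = 0.0010). With a pseudocount of 0.1 the first 2 became -6.04 and -5.72. iTreg exceeded Th17_b by 3.31 ± 0.45 (adjusted p = 0.00023; 6.14 with that pseudocount) and IL27_plus_TGF_beta by 3.26 ± 0.45 (adjusted p = 0.00016; 5.82). From Th0 to iTreg the change was 0.06 ± 0.45 (adjusted p = 0.91), so Lrrc32 did not separate the medium with Foxp3 from Th0 at this spread.

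Izumo1r was the most abundant of the 6 genes in FPKM in all media except iTreg in replicate 1, where Foxp3 was higher. Its level was 468 and 533 FPKM in Th2, 356 and 459 in Th0, 238 and 292 in Th1, 126 and 140 in Th17_23, 126 and 108 in IL27_plus_TGF_beta, 73.9 and 148 in iTreg and 18.7 and 27.3 in Th17_b. The media with no TGF-β, IL-6 or IL-27 were the 3 highest, Th17_b was below all others, and iTreg overlapped with IL27_plus_TGF_beta. The gene fell from Th0 in iTreg (-1.94 ± 0.22, adjusted p = 6.9e-05), IL27_plus_TGF_beta (-1.79 ± 0.22, adjusted p = 0.00012), Th17_23 (-1.60 ± 0.22, adjusted p = 0.00035) and Th17_b (-4.10 ± 0.22, adjusted p = 6.2e-07). Among the 1235 tested genes lowest in Th17_b, only 1 had a wider margin below its next medium than Izumo1r, whose margin was 2.16. Th17_b was lower than iTreg, IL27_plus_TGF_beta and Th17_23 in every library; Th17_b against Th17_23 gave -2.50 ± 0.22 (adjusted p = 1.8e-05), IL27_plus_TGF_beta against Th17_b 2.31 ± 0.22 (adjusted p = 3.1e-05) and iTreg against Th17_b 2.16 ± 0.22 (adjusted p = 3.9e-05).

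The remaining Izumo1r comparisons were not called. In iTreg against IL27_plus_TGF_beta the change was -0.15 ± 0.22 (adjusted p = 0.56), and without the second iTreg library -0.54 (adjusted p = 0.03). In Th1 against Th0 it was -0.61 ± 0.22 (adjusted p = 0.094), and it was called when only these media were fitted (adjusted p = 0.028). The other genes listed with Izumo1r were scarce, and none passed the filter. Of the folate receptor genes, Folr1 was at 0 in every library but 1 and Folr2 at 0.108 to 0.336 FPKM over the media means. Izumo1, not a folate receptor but the sperm partner of the egg receptor, was at 0.0112 to 0.647 over the media means.

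**Figure D2:**
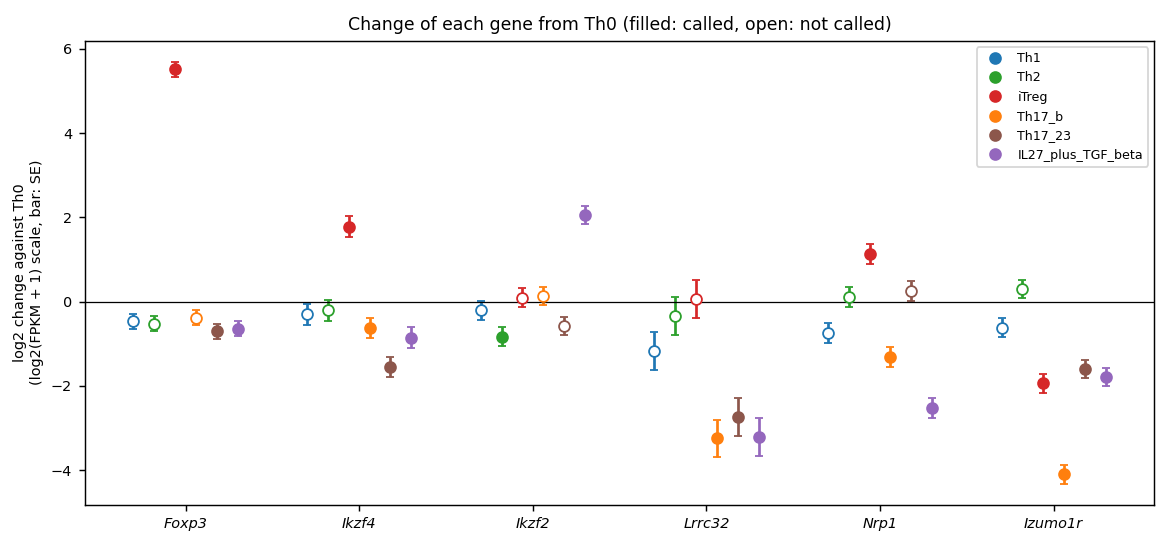
Change of each gene from Th0 in the 6 other media (log2(FPKM + 1) scale, bars are SE, filled points called by limma, open points not called). Foxp3, Ikzf4 and Nrp1 were called higher in iTreg, by 5.51, 1.78 and 1.13, and Ikzf2 was called higher in IL27_plus_TGF_beta alone.

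Counted together, 3 of the 6 genes were called higher and 1 lower in iTreg than in Th0, where 22.7% and 40.7% of all tested genes were. In Th17_b against Th0 the counts were 0 higher and 4 lower, beside 25.4% and 29.1% of all genes, and in Th17_23 against Th0 they were 0 and 4, beside 26.4% and 22.9%. In IL27_plus_TGF_beta against Th0 all 6 were called, 1 higher and 5 lower, beside 22.0% and 28.8%. These 4 comparisons share the Th0 libraries. In Th2 against Th0 only Ikzf2 was called, lower, beside 5.68% higher and 12.4% lower. In Th1 against Th0 limma called none, beside 6.36% higher and 7.55% lower; 4 had an unadjusted p under 0.05. Without the first Th0 library 2 were called in Th1 (Foxp3 and Nrp1) and 2 in Th2 (Foxp3 and Ikzf2).

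Between the cytokine media, 5 were higher and none lower in iTreg than in Th17_b, beside 21.7% and 37.6% of all genes. The exception was Ikzf2, with a change of -0.05 ± 0.22 (adjusted p = 0.87). Against IL27_plus_TGF_beta, iTreg had 4 higher and 1 lower, beside 27.9% and 38.4%. IL27_plus_TGF_beta had 2 higher (Ikzf2 and Izumo1r) and 1 lower (Nrp1) than Th17_b, beside 16.7% and 21.9%. Th17_b had 2 higher (Ikzf2 and Ikzf4) and 2 lower (Nrp1 and Izumo1r) than Th17_23, beside 23.4% and 32.2%. Foxp3 (-0.26 ± 0.18, adjusted p = 0.28, and 0.32 ± 0.18, adjusted p = 0.16) was called in neither of the last 2 comparisons, though quantile normalization gave 0.47 (adjusted p = 0.0383) in the second. Lrrc32 was not called there either (-0.51 ± 0.45, adjusted p = 0.36), but with a pseudocount of 0.1 it was, at -2.02 (adjusted p = 0.00438).

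The replicates differed more for some of these genes than for others. Lrrc32 was higher in replicate 2 in 7 of 7 media, as were 10.3% of the tested genes, and its ratio of replicate 2 to replicate 1 was 5.37 in Th0, 3.28 in iTreg, 3.10 in Th17_23 and 3.03 in Th1. In Th0 the ratio was also 3.61 for Ikzf2, 2.46 for Foxp3, 2.38 for Ikzf4 and 2.35 for Nrp1, and 1.29 for Izumo1r. In the same Th0 libraries Il2ra, the high-affinity IL-2 receptor chain, stood at 126 and 342 FPKM, and Socs2 and Cish, genes known to be induced by IL-2 through STAT5, at 22.3 and 61.4 and at 60.5 and 172. Nr4a1, an early gene of T cell receptor signalling, also differed there, at 92.0 and 232 FPKM, as did Tnfrsf18, at 183 and 368. Ctla4 differed less, at 155 and 180. All these values were higher in replicate 2, as the members' were, and their part in the Th0 spread was not tested. iTreg, whose medium had added IL-2, held Socs2 at 18.1 and 81.2 and Cish at 19.4 and 86.8, and in these libraries the ratio was 3.28 for Lrrc32, 2.00 for Izumo1r, 1.11 for Ikzf4, 1.10 for Nrp1, 1.08 for Foxp3 and 0.903 for Ikzf2.

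**Figure D3:**
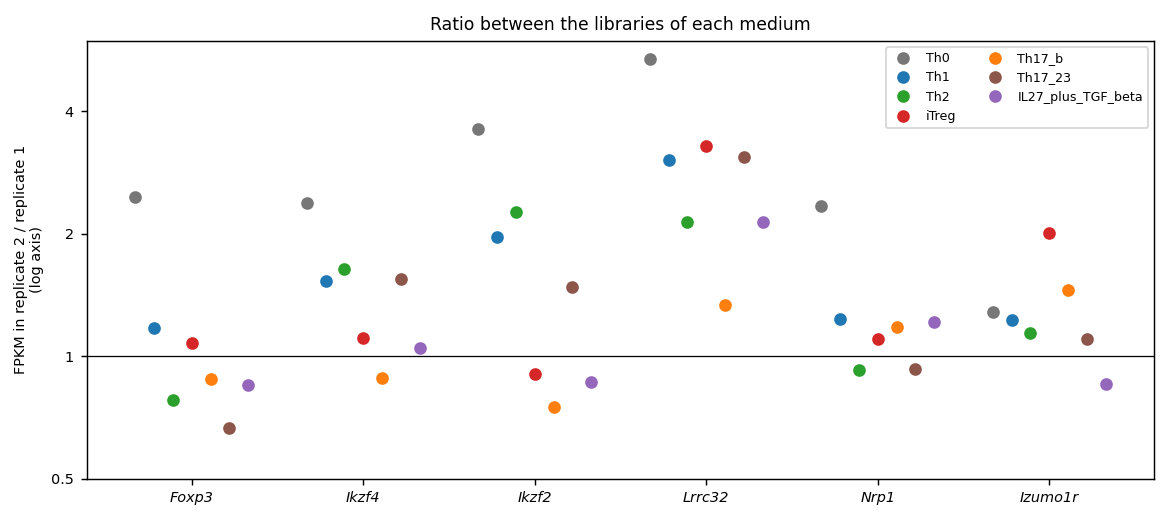
Ratio of FPKM in replicate 2 to replicate 1 for each gene in each medium (log axis, line at 1). Every Lrrc32 point lay above 1, up to 5.37 in Th0, while the iTreg points of Foxp3, Ikzf4 and Nrp1 lay between 1.08 and 1.11.

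The 6 genes did not follow 1 pattern. Over the 14 libraries, with each table centred, Pearson's r of log2(FPKM + 1) was 0.891 for Foxp3 and Ikzf4, 0.739 for Ikzf4 and Lrrc32 and 0.719 for Lrrc32 and Nrp1. It was -0.700 for Ikzf2 and Nrp1 and -0.005 for Foxp3 and Ikzf2. These are descriptions across libraries that share media, and Foxp3 was high in the iTreg libraries alone. Among the genes most like Foxp3 were Mical2 (r = 0.994), Pyroxd2 (0.994), Rnase4 (0.993) and Adamtsl2 (0.991), with means of 2.55 to 17.9 FPKM in iTreg and no mean above 0.732 elsewhere. These genes passed the filter through iTreg alone, so a high r with Foxp3 follows from how they entered and is no separate result.

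Those most like Ikzf4 were Suox (0.968), Npc1 (0.967), Sh2b1 (0.964), Arl5c (0.961) and Dgkd (0.960), each highest in iTreg and lowest in Th17_23. Suox, encoding sulfite oxidase, is the next protein-coding gene to Ikzf4 on chromosome 10 and stood at 25.1 FPKM in iTreg, 15.2 in Th0 and 8.29 in Th17_23. The pattern of Lrrc32 was closest to Socs2 (0.964), a feedback inhibitor of cytokine signalling, which stood at 41.8 FPKM in Th0, 49.6 in iTreg, 0.367 in Th17_b and 0.328 in IL27_plus_TGF_beta. Next came Klhdc1 (0.958), Rpl18 (0.953), Cd74 (0.953), the invariant chain of class II antigen presentation, and Ikbke (0.950). Dapl1 (0.970) was closest to Izumo1r, at 60.6 FPKM in Th0, 11.1 in iTreg and 1.08 in Th17_b, before Mmab (0.967), Inpp4b (0.960), Litaf (0.956) and Pglyrp1 (0.952). Nrp1 was most like Wipi2 (0.933), Hbegf (0.917), an EGF receptor ligand, Slc17a9 (0.910), Fhl3 (0.909) and Cd9 (0.908). For Ikzf2 they included Etv3 (0.953), Cep43 (0.948), Zxdb (0.942) and Dhrs7 (0.939), each highest in IL27_plus_TGF_beta.

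Among the other Ikaros family genes, Ikzf3, encoding Aiolos, rose from 8.44 FPKM in Th0 to 55.6 in iTreg (2.54 ± 0.16, adjusted p = 2.4e-06) and 138.5 in IL27_plus_TGF_beta (3.88 ± 0.16, adjusted p = 1.2e-07). Its mean in Th17_b, 87.5 FPKM, was also above that in iTreg. Ikzf1, encoding Ikaros, was called higher in IL27_plus_TGF_beta (0.31 ± 0.08, adjusted p = 0.012) and not in iTreg (0.06 ± 0.08, adjusted p = 0.55). Ikzf5, at 6.32 FPKM in Th0, was called in neither (adjusted p = 0.15 in iTreg and 0.12 in IL27_plus_TGF_beta).

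Of 24 genes for inducers and partners of Foxp3, 9 were called higher and 7 lower in iTreg than in Th0, beside 22.7% and 40.7% of all tested genes, with a median of 0.0035 beside -0.127 for all. Foxo1 (1.24 ± 0.09), Nfatc2 (1.07 ± 0.08), Runx1 (1.69 ± 0.15) and Stat5b (1.14 ± 0.11), all transcription factors known to act at Foxp3, had the smallest p (adjusted p = 6.4e-06 to 3.2e-05). Nfatc2, Runx1 and Stat5b had their highest means in iTreg, but Foxo1 had its highest in Th17_b, at 70.5 FPKM against 45.5 in iTreg. The iTreg libraries of Nfatc2 (37.56 and 31.37 FPKM) overlapped with those of Th17_b (35.66 and 29.55) and IL27_plus_TGF_beta (34.41 and 29.85). For Nfatc2 these media did not differ beyond their spread. In IL27_plus_TGF_beta 13 were higher and 6 lower, beside 22.0% and 28.8% of all, with a median of 0.275 beside -0.044. Foxo1 (1.41 ± 0.09) and Nfatc2 (0.97 ± 0.08) rose there too, as did Bach2, a repressor of effector genes (1.68 ± 0.12), and Nr4a1, an early gene of T cell receptor signalling, fell (-2.25 ± 0.16).

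Of 17 tested surface and effector genes of regulatory T cells, 7 were higher and 6 lower in iTreg, beside 22.7% and 40.7% of all tested genes, with a median of 0.0982 beside -0.127. Nt5e and Entpd1, which encode the enzymes CD73 and CD39 that turn ATP into adenosine, rose from 5.42 to 356 FPKM (5.78 ± 0.16, adjusted p = 3e-08) and from 0.198 to 4.41 (2.13 ± 0.17, adjusted p = 9.8e-06). Nt5e was also high in Th17_b, at 213 FPKM on average. The iTreg libraries of Entpd1 (3.09 and 5.74 FPKM) overlapped with those of Th2 (2.99 and 4.33). Ccr8, a chemokine receptor, rose from 10.9 to 194 (4.03 ± 0.20, adjusted p = 7.8e-07), and Tnfrsf18, encoding GITR, fell from 275 to 69.7 (-1.90 ± 0.16, adjusted p = 1.6e-05). Il2ra (-0.13 ± 0.33, adjusted p = 0.75) was not called and Ctla4, the inhibitory receptor, fell (-0.62 ± 0.14, adjusted p = 0.0034), while Itgae, an integrin chain, rose from 0.155 to 6.59 FPKM (2.52 ± 0.35, adjusted p = 0.00021). The iTreg libraries held Itgae at 10.3 and 2.85 FPKM, and the Th17_b libraries lay between these, at 6.10 and 4.69. In IL27_plus_TGF_beta 7 were higher and 5 lower, beside 22.0% and 28.8%, with a median of 0.318 beside -0.044. Nt5e (4.46 ± 0.16), Tigit (3.75 ± 0.22) and Il10 (3.71 ± 0.36) rose there and Tnfrsf18 fell (-1.49 ± 0.16).

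Of 15 genes that release, hold or receive TGF-β, 10 were tested. In iTreg 5 were higher and 3 lower, beside 22.7% and 40.7% of all tested genes, with a median of 0.199 beside -0.127. Furin, the protease that cuts the TGF-β precursor, rose from 11.4 to 61.6 FPKM (2.34 ± 0.12, adjusted p = 7.8e-07), and the receptor genes Tgfbr1 (2.74 ± 0.20, adjusted p = 7e-06) and Tgfbr2 (1.75 ± 0.10, adjusted p = 1.5e-06) rose with it. Furin had higher means in Th17_b (137 FPKM) and Th1 (76.75) than in iTreg, while both receptor genes had their highest means in iTreg. Nrros, which like GARP tethers latent TGF-β, fell (-1.45 ± 0.12, adjusted p = 1.6e-05). In IL27_plus_TGF_beta 6 were higher and 4 lower, beside 22.0% and 28.8%, with a median of 0.483 beside -0.044: Tgfbr3 (2.39 ± 0.11) and Itgb8, an integrin chain that activates TGF-β (1.25 ± 0.14), rose, and Nrros (-2.34 ± 0.12) and Tgfb1 (-1.05 ± 0.10) fell. Itgb8 was at 1.77 FPKM on average in this medium and at most 0.65 in any other. It passed the filter through IL27_plus_TGF_beta alone, so its call adds nothing to these values.

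Of 13 neuropilin partners 7 were tested. In iTreg 5 were lower and none higher, beside 40.7% and 22.7% of all tested genes, with a median of -0.707 beside -0.127. In IL27_plus_TGF_beta 5 were lower and none higher, beside 28.8% and 22.0%, with a median of -1.11 beside -0.044. The plexin and semaphorin genes Plxna3 (-1.28 ± 0.08), Sema4a (-1.48 ± 0.14), Plxnd1 (-0.71 ± 0.08) and Plxna1 (-0.91 ± 0.14) fell in iTreg, where Nrp1 rose. In IL27_plus_TGF_beta, where Nrp1 fell, Plxnd1 (-1.98 ± 0.08), Plxna3 (-1.85 ± 0.08), Sema4a (-2.66 ± 0.14) and Vegfa (-1.11 ± 0.20) fell too. Nrp2, the paralogue of Nrp1, did not pass the filter and was at most 0.379 FPKM on average.

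**Figure D4:**
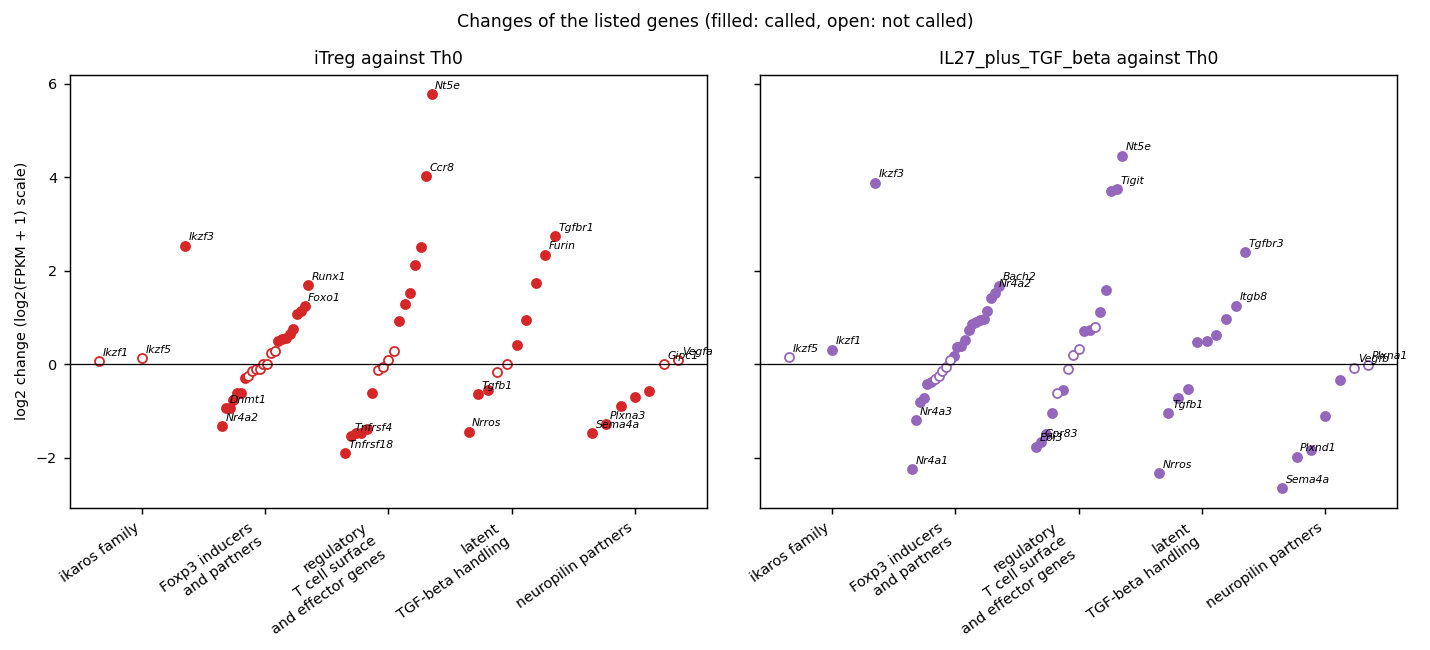
log2 changes (log2(FPKM + 1) scale) of the tested genes of 5 lists in iTreg and IL27_plus_TGF_beta against Th0; filled points were called by limma and the outermost genes are named. Nt5e had the widest rise in both panels, at 5.78 and 4.46, and no neuropilin partner was called higher in either.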

How the data were processed

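RNA was measured in 14 libraries of 7 media, grouped by their titles. Libraries were made from total RNA with a TruSeq kit, per the labels' protocols. The submitters' processing notes name TopHat2 2.0.3, Cufflinks 1.3.0 and the build mm9 without their roles. The authors deposited FPKM in 2 tables, 1 with replicate 1 of every medium and 1 with replicate 2; strand use and the treatment of shared reads are not given in the sources used here. Each table held 30028 transcripts, of which 96.7% were named by accession, 241 by symbol and 739 by themselves.

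FPKM of a gene's transcripts were summed, and log2(FPKM + 1) was fitted with limma 3.58.1 in R 4.3.3 (eBayes with a trend) over all libraries, with medium and table as terms. This left 6 residual and 3.34 prior degrees of freedom. P-values are two-sided, with Benjamini-Hochberg adjustment over 11557 genes. The table is also the replicate number. Deviations of libraries with 1 number correlated at -0.127 to 0.357 over 21 pairs of media, with a median of 0.141 and above 0.1 in 15. Libraries with 1 number thus tended to deviate together, though weakly. Whether this comes from paired samples or from the tables was not tested. The term was kept because the tables were deposited apart. The labels do not say whether replicates were separate animals or cultures; p-values cover the spread between the samples at hand, which may be technical. FPKM give only relative depth, taken from the most common ratio of values at or under 0.15 FPKM, and no counting interval.

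Named are the 6 genes, the 5 tested genes most like each (some of which are not reported here), all genes of the Ikaros and folate receptor lists, and up to 4 genes of each other list with the smallest p in iTreg and in IL27_plus_TGF_beta against Th0. Il2ra, Ctla4, Itgae, Cish, Nrp2, Ccdc22, Ppp1r3f and Gpr83 were added after their values were seen. The genes, lists and tests were chosen with earlier results of these data known. Alternatives were no replicate block, no filter or 1 at 5 FPKM, a pseudocount of 0.1, median scaling, quantile normalization, no trend, a fit of only the compared media, leaving out each library, and using a gene's highest transcript instead of its sum. In simulated data for iTreg against Th0 over 11557 genes the procedure recovered 31 of 50 genes changed by 0.5 on the log2 scale and 50 of 50 at each of 1, 2 and 3; it called 9 of the 11357 genes left unchanged. Changes were placed only in genes fitted above 1 on the log2(FPKM + 1) scale in the first Th0 library. The noise was independent and normal with each gene's fitted spread, so the simulation tests neither that spread nor scarcer genes.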

Additional observations from a re-analysis of the deposited data

How the results depend on the processing

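Of 60 changes (6 genes in 10 comparisons), 36 were called; all 36 kept their direction under every alternative and 29 also kept the call. Without the replicate block 2 calls were lost, both of Ikzf4, in Th17_b (adjusted p = 0.13) and IL27_plus_TGF_beta (adjusted p = 0.0525) against Th0, none was gained, and the members called in iTreg against Th0 stayed at 4. Members called in Th1 against Th0 numbered 1 in a fit of the compared media alone and 0 to 2 over the leave-one-out fits. In Th2 against Th0 they numbered 0 with no filter and with quantile normalization. They also numbered 0 with the compared media alone, where Ikzf2 was not tested because its mean reached 1 FPKM in neither medium. In Th17_b against Th17_23 they ranged from 2 to 4 over the leave-one-out fits, and were 5 with quantile normalization and with a pseudocount of 0.1, beside 4 in the main result. Where a lone library is left it is assumed to vary like the other media. Counts over all genes moved by more than 1.5 times in Th1 against Th0 (1608 called, 969 without the block, 495 with the compared media alone, 493 to 914 over the leave-one-out fits) and, in leave-one-out fits alone, in Th2 against Th0 (2085 called, 1001 at the lowest).

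Only changes that were not called reversed. Leaving out 1 library each gave these ranges: Ikzf2 from -0.32 to 0.50 in iTreg against Th0, -0.27 to 0.55 in Th17_b against Th0, -0.62 to 0.20 in Th1 against Th0 and -0.25 to 0.16 in iTreg against Th17_b; Lrrc32 from -0.65 to 0.78 in iTreg against Th0, -1.06 to 0.38 in Th2 against Th0, -0.48 to 0.57 in IL27_plus_TGF_beta against Th17_b and -1.03 to 0.02 in Th17_b against Th17_23. Nrp1 ranged from -0.25 to 0.76 in Th17_23 and -0.40 to 0.61 in Th2 against Th0. Ikzf4 ranged from -0.72 to 0.11 in Th1 against Th0, -0.62 to 0.21 in Th2 against Th0 and -0.53 to 0.08 in IL27_plus_TGF_beta against Th17_b. Izumo1r ranged from -0.54 to 0.24 in iTreg against IL27_plus_TGF_beta. With all libraries, median scaling turned Ikzf2 in iTreg against Th17_b to 0.03, quantile normalization turned Izumo1r in iTreg against IL27_plus_TGF_beta to 0.05, and the highest transcript turned Foxp3 in IL27_plus_TGF_beta against Th17_b to 0.03. The cause was not tested.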

Other observations

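Gpr83, a receptor gene high in regulatory T cells, is the next protein-coding gene to Izumo1r on chromosome 9 and is described here after its values were seen. It stood at 6.39 and 14.6 FPKM in Th0, 5.89 and 5.78 in Th17_23, 4.95 and 6.75 in Th1, 3.57 and 5.18 in Th2, 1.54 and 4.81 in iTreg, 2.51 and 2.22 in IL27_plus_TGF_beta and 0.843 and 1.23 in Th17_b. Like Izumo1r it was lowest in Th17_b and was called lower than Th0 in iTreg (-1.48 ± 0.29, adjusted p = 0.0017, limma) and in IL27_plus_TGF_beta (-1.67 ± 0.29, adjusted p = 0.0011). Unlike Izumo1r, it was not highest in Th2.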
